A study of Mus musculus with 4 samples.

Results

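Of 35796 regions merged from every FAIRE-positive peak of the series, 10538 lay on autosomes and had a peak in all 4 libraries, and 5530 of these had their middle more than 2 kb from any annotated transcription start site (TSS). The regions described here were the 2059 of those 5530 constant distal regions whose central 500 bp held neither the AP-1 site (TGACTCA or TGAGTCA) nor the ETS site (CCGGAAA or CCGGAAG) on either strand. The other constant distal regions held an AP-1 site only (3106 regions), an ETS site only (187) or both (178). Regions were selected on the authors' peak calls and on these letters, so neither the presence of a peak in every library nor the absence of both sites is a result.

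FAIRE-seq recovers protein-poor DNA after crosslinking and reads it as accessible chromatin. It was applied to EpRas cells, a mouse mammary epithelial line transformed with active H-Ras, which all groups carried. The 4 groups, all at day 4, were control siRNA (siControl) left untreated, siControl with TGF-beta3 at 1 ng/ml, and the same TGF-β treatment after transfection of siRNAs against the ETS factor genes Etv4 and Etv5 as set 1 or as set 2. There was 1 list of peaks per group, so no comparison between groups could be tested, and the study's biological replicates may have been combined in each list. The estimated depth was 15.3 M to 20.7 M reads per library (M, mega), with 14925 to 28754 peaks. EpRas is a single cell line, and the lists carry no expression values with which to check its mammary identity.

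AP-1 dimers of FOS and JUN proteins, and ETS factors such as ETV4 and ETV5 of the PEA3 subfamily, are end points of Ras-ERK signalling and hold many distal elements of epithelial cells open. Accessible elements that lack both sites belong to several known kinds. CTCF, with cohesin, holds the anchors of chromatin loops, TEAD factors recruit YAP and TAZ, RUNX factors cooperate with AP-1 and SMADs, and CpG-rich promoters are opened by factors such as NRF1, SP proteins and CREB.

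The sequences that carry the main features are shown first, on the mm10 build (GRCm38) and read in the direction in which the motif was matched. Examples were taken in order of fold enrichment in the weakest library, among regions whose site lay within 50 bp of the summit. Regions that were over 50% soft-masked, held a median 36-base word found elsewhere in the genome or were already shown were passed over. In the CTCF examples the capitals mark the CTCF letters that were searched.
Near Qrich2, chr11:116446174-116446233, minus strand: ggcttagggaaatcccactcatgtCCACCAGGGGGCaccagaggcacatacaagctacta
Near AC122442.1, chr19:46869712-46869771, minus strand: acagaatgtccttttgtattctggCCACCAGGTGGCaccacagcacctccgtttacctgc
Near Sost, chr11:101969018-101969077, minus strand: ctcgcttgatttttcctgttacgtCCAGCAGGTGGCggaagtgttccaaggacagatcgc
Near Aldh2, chr5:121602100-121602159, minus strand: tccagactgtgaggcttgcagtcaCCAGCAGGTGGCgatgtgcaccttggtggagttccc

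The next examples hold a word that differs from the AP-1 site in 1 letter, in capitals, and were chosen in the same way.
Near Gm16299, chr19:53800682-53800736, plus strand: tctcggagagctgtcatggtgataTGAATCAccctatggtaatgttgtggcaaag
Near Ecpas, chr4:58867371-58867425, minus strand: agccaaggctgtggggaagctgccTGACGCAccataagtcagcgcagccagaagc
Near Cc2d2a, chr5:43692695-43692749, minus strand: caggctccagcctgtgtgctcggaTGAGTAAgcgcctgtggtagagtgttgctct
Near Gm48408, chr13:15741934-15741988, minus strand: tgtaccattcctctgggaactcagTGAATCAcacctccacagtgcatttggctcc

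Regions with a TEAD site, an NRF1 site, a CREB/ATF site and dense CpG are shown with the site, or every CpG, in capitals.
TEAD near Gm17140, chr15:66732850-66732904, plus strand: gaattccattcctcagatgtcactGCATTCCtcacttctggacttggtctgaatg
TEAD near Gm27805, chr2:32167972-32168026, plus strand: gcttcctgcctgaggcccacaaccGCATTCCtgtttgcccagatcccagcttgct
NRF1 near Gm11708, chr11:107012729-107012786, minus strand: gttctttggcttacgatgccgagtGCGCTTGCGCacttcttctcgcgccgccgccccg
CREB/ATF near Tle2, chr10:81571708-81571763, plus strand: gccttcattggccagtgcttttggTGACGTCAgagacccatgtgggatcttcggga
CpG-rich near Gm11668, chr11:109011849-109011968, plus strand: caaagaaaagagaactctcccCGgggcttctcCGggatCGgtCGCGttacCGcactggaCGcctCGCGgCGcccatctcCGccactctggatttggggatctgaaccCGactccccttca

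The last examples are the middles of the strongest regions near Cdk5rap2 and Gm44436, and part of a further region near Gm23950, whose likeness to repeats is described at the end. Capitals mark the letters of a RUNX site in the last of them.
Near Cdk5rap2, chr4:70378163-70378282, plus strand: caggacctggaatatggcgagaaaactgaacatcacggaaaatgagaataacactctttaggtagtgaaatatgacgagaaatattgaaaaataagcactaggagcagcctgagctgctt
Near Gm44436, chr6:103649049-103649168, plus strand: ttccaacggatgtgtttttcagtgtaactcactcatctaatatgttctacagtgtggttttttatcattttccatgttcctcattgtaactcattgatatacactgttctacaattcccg
Near Gm23950, chr4:64497877-64497931, plus strand: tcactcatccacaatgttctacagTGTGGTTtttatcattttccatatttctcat

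To find what other letters the 2059 regions held, the share of their 500-bp windows with each of 43 motifs was set against 3122 flanking windows 5 kb to either side, which overlapped no peak and also held neither the AP-1 nor the ETS site. Intervals are 95% Wilson intervals for a share and log-normal intervals for a ratio of shares, and they cover counting error over windows only. Of the 36 motifs found in at least 20 regions, 13 were at least 1.5 times as frequent as in the flanks. The exact CTCF motif stood first, followed by NRF1, CREB/ATF, CTCF at up to 1 mismatch, the AP-1 site with A or T in the middle, and TEAD. The interval of the ratio lay above 1 for 21 motifs and below 1 for 3. The flanks had a lower GC content than the regions. Windows placed every 50 kb through the genome were therefore also used, weighted to the GC content of the regions. Against these, KLF/SP (1.28) and AP-2 (1.39), both among the 13, fell below 1.5. NRF1 stood at 5.19 and CREB/ATF at 3.64.

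**Figure D1:**
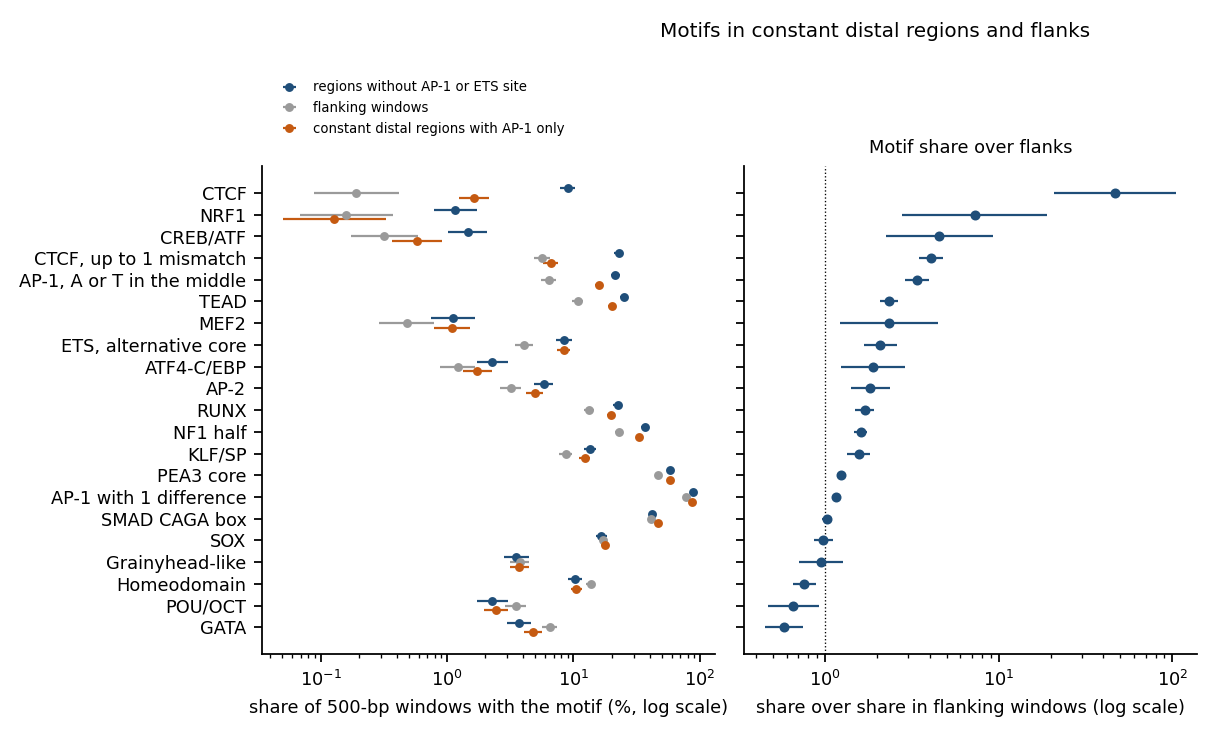
Share of 500-bp windows with each motif (left, percent on a log axis) in the 2059 regions without AP-1 or ETS site, in 3122 flanking windows and in 3106 constant distal regions with an AP-1 site only, and the ratio of regions to flanks (right, log axis). Points are shares or ratios and bars are 95% intervals for counting error; the CTCF motif stands farthest to the right at 46.8, and GATA farthest to the left at 0.578.

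CTCF is an 11-zinc-finger protein that insulates domains and anchors loops. Its exact motif was found in 185 of 2059 regions (8.98%, interval 7.82 to 10.3) against 6 of 3122 flanks (0.192%), a ratio of 46.8 (interval 20.8 to 105). With so few flanks holding it, the ratio moved to 28.0 against flanks at 10 kb, 26.5 against genome windows weighted by GC and 85.5 with the comprehensive TSS annotation. With 1 mismatch allowed, 470 regions (22.8%) and 175 flanks (5.61%) held it, a ratio of 4.07 (3.45 to 4.80). Constant distal regions with an AP-1 site only held the exact motif in 1.64%, so the regions without either site held it 5.47 times as often (4.03 to 7.42). Those with an ETS site only held it in 8.56%. Over all 23844 distal regions of any library the share was 8.12%.

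The CTCF letters sat at the summit. Within 50 bp of the median summit there were 167 exact sites, and between 150 and 250 bp there were 2, a density ratio of 167 (interval 41.4 to 673), where flanks had a ratio of 4.00 from 2 and 1 sites. With 1 mismatch the ratio was 18.4. In the printed examples the sites lay 12, 19, 3 and 11 bp from the summit. Of the 193 sites in the 500-bp windows, 8 regions held 2 or more, and A followed the last letter in 55.4% of sites while T stood 3 bases before the first in 57.0%.

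Of the 4 printed CTCF regions, those near Qrich2, AC122442.1 and Aldh2 were read at similar heights in every library, and the one near Sost varied more. Fold enrichment, the authors' ratio of signal to local background at the summit, was 11.8 near Qrich2 in untreated cells, 10.7 in siControl with TGF-β, 11.2 in set 1 and 11.7 in set 2, and later values follow this library order. Near Sost, which encodes the Wnt inhibitor sclerostin, it was 12.05, 14.3, 14.3 and 10.1. Near Aldh2, which encodes mitochondrial aldehyde dehydrogenase, it was 10.1, 11.4, 10.9 and 10.1. Among the 470 regions with a CTCF motif at up to 1 mismatch, 256 (54.47%) were intergenic, against 47.7% of all 2059.

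CTCF motifs were not particular to constant regions. Distal regions with neither site that lacked a peak in at least 1 library held the exact motif in 1465 of 9980 cases (14.7%, interval 14.0 to 15.39), so the constant regions held it 0.612 times as often (0.529 to 0.708). The share was 15.0%, 15.3%, 13.2% and 8.98% in regions called in 1, 2, 3 and 4 libraries. Within the constant regions the share by strength turned with the measure of strength. Of the 206 regions with the lowest fold enrichment in their weakest library, 9.22% held a CTCF motif at up to 1 mismatch (interval 5.98 to 14.0), and of the 206 with the highest, 34.95% (28.8 to 41.7). Ordered instead by summit fragments over estimated depth in the weakest library, the weakest 206 held it in 27.2% (21.6 to 33.6) and the strongest 206 in 11.7% (7.96 to 16.7). The median local background of regions with this motif was 1.40 fragments in untreated cells, against 1.79 over all 2059.

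**Figure D2:**
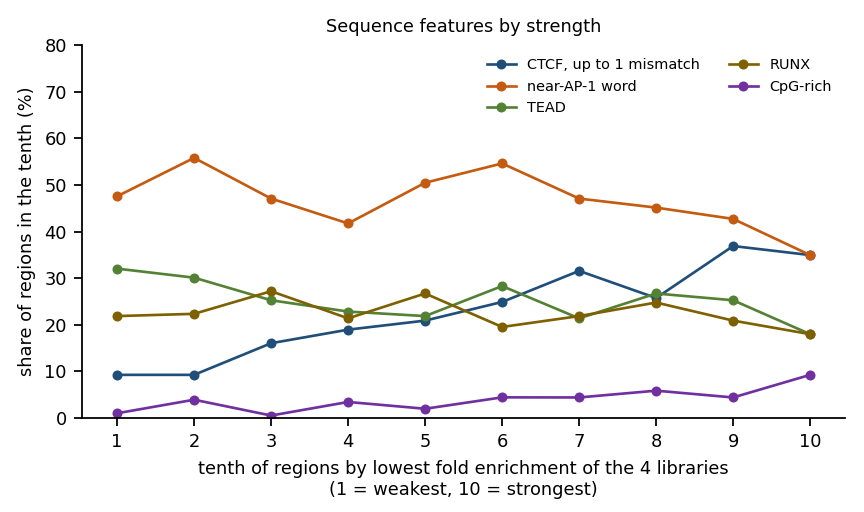
Share of regions (percent) with each of 5 sequence features in 10 groups of 205 or 206 regions ordered by the lowest fold enrichment of the 4 libraries, from weakest to strongest. Points are shares with no replicate error; the CTCF line runs from 9.22% to 34.95%, and the near-AP-1 and TEAD lines end at their lowest values, 34.95% and 17.96%. With regions ordered by fragments over depth the CTCF share ran the other way, from 27.2% in the weakest 206 to 11.7% in the strongest 206. The near-AP-1 share then rose from 39.8% to 47.6% and the TEAD share from 19.9% to 24.8%, each with overlapping intervals.

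The rule removed the perfect AP-1 site but not its close relatives. Of the 19 words that differ from the AP-1 site in 1 letter and remain possible, 6 were at least 1.5 times as frequent in the regions as in the flanks and 13 were not. TGACTAA was in 383 regions (18.6%) and 154 flanks (4.93%), a ratio of 3.77 (interval 3.15 to 4.51). TGAATCA, with A or T as the middle letter, was in 442 regions (21.5%) and 199 flanks (6.37%), a ratio of 3.37 (2.88 to 3.94). TGACGCA had a ratio of 2.99 and TGAGTAA of 2.72.

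The remaining single changes were closer to the flanks. TGACTCG had a ratio of 1.79, TGAGACA of 0.969 and TGAGCCA of 0.904. Taken as 1 class, words with 1 difference were common everywhere, in 88.8% of regions and 77.3% of flanks, a ratio of 1.15 (1.12 to 1.18).

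The 4 words with the highest ratios, called near-AP-1 words here and chosen for those ratios, were in 962 regions (46.7%) and 518 flanks (16.6%). Constant distal regions with a perfect AP-1 site also held one in 37.0% of cases, and distal regions with neither site that were not called in all libraries in 37.7%, below the 46.7% of the constant ones at a ratio of 1.24 (1.18 to 1.31). Near-AP-1 words were 8.38 times as dense within 50 bp of the summit as at 150 to 250 bp (7.12 to 9.88), against 1.08 in the flanks. TGAATCA alone had 298 sites at the centre and 62 at the edge.

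The printed near-AP-1 regions were highest in siControl with TGF-β near Gm16299, Ecpas and Cc2d2a. Near Gm16299, a noncoding RNA locus, fold enrichment was 11.8, 17.4, 12.6 and 12.6. Near Ecpas, a proteasome adaptor gene, it was 11.1, 15.7, 11.8 and 11.4. Near Cc2d2a, a gene of the ciliary transition zone, it was 11.05, 15.5, 12.9 and 10.5. Near Gm48408 the values were level, at 12.04, 11.9, 11.5 and 10.2.

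**Figure D3:**
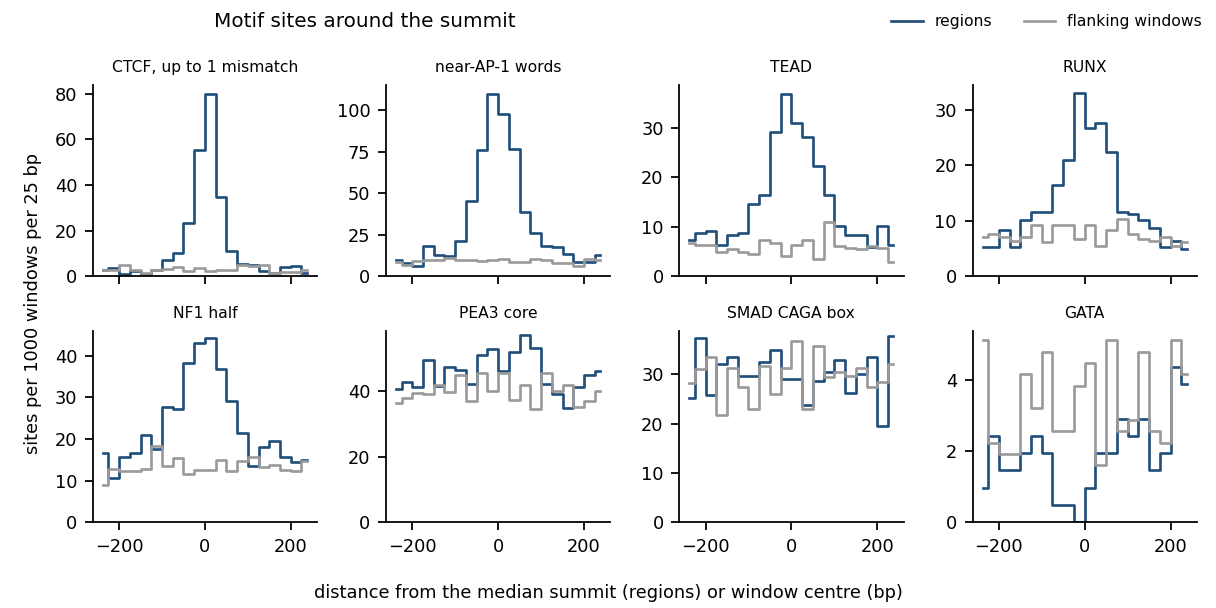
Motif sites per 1000 windows in 25-bp bins against the distance (bp) from the median summit of the 2059 regions, or from the centre of the 3122 flanking windows. CTCF, near-AP-1, TEAD, RUNX and short NF1 sites peak at the summit; the PEA3 core and the SMAD CAGA box are nearly flat, and GATA dips.

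TEAD factors bind DNA for the Hippo pathway coactivators YAP and TAZ. The TEAD site (ACATTCC or GCATTCC) was in 518 regions (25.2%) and 337 flanks (10.8%), a ratio of 2.33 (2.06 to 2.64), against 20.2% of AP-1-only regions and 19.4% of all distal regions. It was 4.03 times as dense at the summit as at the edge. Of the 518 regions, 251 (48.5%) also held a near-AP-1 word, close to the 46.7% of all 2059. With every AP-1 word at 1 difference barred as well, 230 regions and 72 flanks remained, the TEAD share was 19.6% in regions and 20.8% in flanks, and the ratio fell below 1, to 0.939 with an interval of 0.558 to 1.58.

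RUNX factors are DNA-binding partners of CBFB. The RUNX site (TGCGGTT or TGTGGTT) was in 462 regions (22.4%) and 416 flanks (13.3%), a ratio of 1.68 (1.49 to 1.90), against 19.8% of AP-1-only regions and 18.6% of all distal regions. It was 4.37 times as dense at the summit as at the edge. The short NF1 site (TTGGCA) was in 36.6% of regions and 22.8% of flanks, a ratio of 1.61.

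The rule used CCGGAAA and CCGGAAG as the ETS site, and words close to it remained. A word 1 letter away need not be bound by ETS factors. Of the 38 words that differ from this site in 1 letter, 19 were at least 1.5 times as frequent as in the flanks and 19 were not. The 5 highest ratios were 4.55 for CCGGACG, 3.03 for GCGGAAA, 2.97 for CCGCAAG, 2.73 for CCGGATG and 2.31 for CCGGGAG. Those words were each in only 9 to 87 regions. All 5 held a CpG, as did most of the 19. The windows held a mean of 8.08 CpG in the regions and 5.06 in the flanks. Whether the ratios of these words exceed what this difference in CpG gives was not tested. The core AGGAAG, bound by PEA3 factors among others, was in 1189 regions (57.7%) and 1455 flanks (46.6%), a ratio of 1.24 (1.18 to 1.31), and in 57.5% of AP-1-only regions. It was nearly flat around the summit, with a density ratio of 1.16 against 1.09 in flanks, and its ratio to flanks was 0.997 once AP-1 words at 1 difference were barred. The longer CAGGAAGT was in 174 regions (8.45%) and 127 flanks (4.07%), a ratio of 2.08 (1.66 to 2.59). Its density ratio was 2.44 (1.65 to 3.62) against 1.49 in flanks. AP-1-only regions held it in 8.37%.

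A search without preset motifs was made over 8-base words. Ratios of these words had a small constant added to the flank counts, so they lie slightly below plain ratios of shares. Of the 18499 8-base words in at least 20 regions, 92 were over 4 times as frequent as in the flanks. Among the 20 with the highest ratios, 17 held a CpG and 4 a near-AP-1 word. GAGGGCGC was in 67 regions and 11 flanks, a ratio of 8.84, and 43 of the 67 also held a CTCF motif at up to 1 mismatch. GTTAGTCA, the highest of the words without CpG, was in 91 regions and 15 flanks, a ratio of 8.90.

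CpG-rich windows, with GC content over 50% and an observed-to-expected CpG ratio over 0.6, were 80 of the 2059 (3.89%, interval 3.13 to 4.81) against 9 of 3122 flanks (0.288%), a ratio of 13.5 (6.78 to 26.8). AP-1-only regions were CpG-rich in 0.225% of cases and ETS-only regions in 15.5%. The NRF1 site was in 24 regions and 5 flanks, a ratio of 7.28 (2.78 to 19.0). The CREB/ATF site TGACGTCA was in 30 regions and 10 flanks, a ratio of 4.55 (2.23 to 9.28), and 17 sites lay within 50 bp of the summit against 1 at 150 to 250 bp, a density ratio of 34.0 (4.52 to 255). NRF1 activates genes of mitochondrial function, and CREB relays cyclic AMP signals.

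Distance from a TSS was judged on the basic annotation, which leaves out some transcripts. In the comprehensive annotation 134 of the 2059 regions (6.51%) lay within 2 kb of a TSS, and so did 9 of the 80 CpG-rich ones (11.2%). Fold enrichment near Tle2, which encodes a Groucho corepressor, was 10.99, 15.0, 11.8 and 9.04. In the CpG-rich region near Gm11668 it was 16.38, 14.1, 15.43 and 16.2.

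The windows had a median GC content of 47.6% (interval 47.2 to 47.8) against 44.8% in the flanks, and 66.5% of the 1927 regions with a flank exceeded the mean of their own flanks. Soft-masked repeats covered a median of 9.80% of the window against 22.6% in the flanks. AP-1-only regions were alike in both, at 47.2% and 9.40%. Regions were a median of 270 bp wide. By place, 83 were in exons (4.03%), 994 in introns (48.3%, interval 46.1 to 50.4) and 982 were intergenic (47.7%), where AP-1-only regions were in introns in 52.4% of cases. The median distance to a TSS was 14.1 kb.

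The 5 features overlapped. At least 2 of the CTCF motif at up to 1 mismatch, a near-AP-1 word, TEAD, RUNX and dense CpG were in 676 regions (32.8%) and 7.11% of flanks. None of them was in 349 regions (17.0%) and 60.8% of flanks. Each of the 5 already exceeded these same flanks on its own, and the near-AP-1 words were chosen for that. The combined shares therefore describe overlap and are no further result against the flanks. A near-AP-1 word was the only one of the 5 in 460 regions and a CTCF motif the only one in 250.

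Fold enrichment differed little between libraries, each of which had to hold a call for a region to enter. The median over the 2059 regions was 8.32, 9.28, 8.21 and 7.14 in the library order above. The highest library of a region exceeded its lowest by a median of 1.43-fold and by at most 3.16-fold, and 1242 regions (60.3%) stayed within 1.5-fold. siControl with TGF-β was the highest library in 1071 regions (52.0%) and set 2 the lowest in 1230 (59.7%). No such count is given for all 10538 autosomal constant regions, so this order is not a trait of the regions described. siControl with TGF-β exceeded untreated in 66.7% of the 2059 and in 68.4% of the 10538. Set 2 exceeded siControl with TGF-β in 11.9% and 9.07%.

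The 3 contrasts below share the siControl TGF-β library, and the values are descriptions of these lists. The median log2 ratio of fold enrichment with TGF-β over untreated was 0.14 (interval 0.12 to 0.16 over regions), against 0.20 in AP-1-only regions. A rise of at least 1.5-fold was seen in 154 regions (7.48%) and a drop of that size in 18 (0.874%), beside 6.53% and 0.826% of all 10538 autosomal constant regions. With set 1 over siControl the median was -0.16, with 137 regions (6.65%) lower by that size and 16 (0.777%) higher, beside 7.16% and 0.389%. With set 2 it was -0.37, with 487 regions (23.7%) lower and 6 (0.291%) higher, beside 26.8% and 0.104%. Nothing is read from these shares, since the calls that chose the regions come from the same libraries.

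The set 2 library had 1.27 times the estimated depth of siControl with TGF-β and the fewest peaks. With summit fragments divided by estimated depth in place of fold enrichment, the median log2 ratios were 0.17, -0.23 and -0.65 for the 3 contrasts as listed. Set 2 was then lowest in 1648 regions (80.04%), with no such count given for all constant regions. A shift of the whole library and a change in the regions cannot be told apart with 1 library per group.

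By sequence, the median log2 ratio with TGF-β was 0.05 (0.01 to 0.09) in the 470 regions with a CTCF motif at up to 1 mismatch and 0.18 (0.16 to 0.21) in the 962 with a near-AP-1 word, and 108 regions were in both groups. It was 0.16 with TEAD, 0.17 with RUNX and 0.10 with none of the 5 features. With set 2 the CTCF group stood at -0.31 and the near-AP-1 group at -0.41, against -0.42 in AP-1-only regions. With set 1 the groups lay between -0.17 and -0.10.

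**Figure D4:**
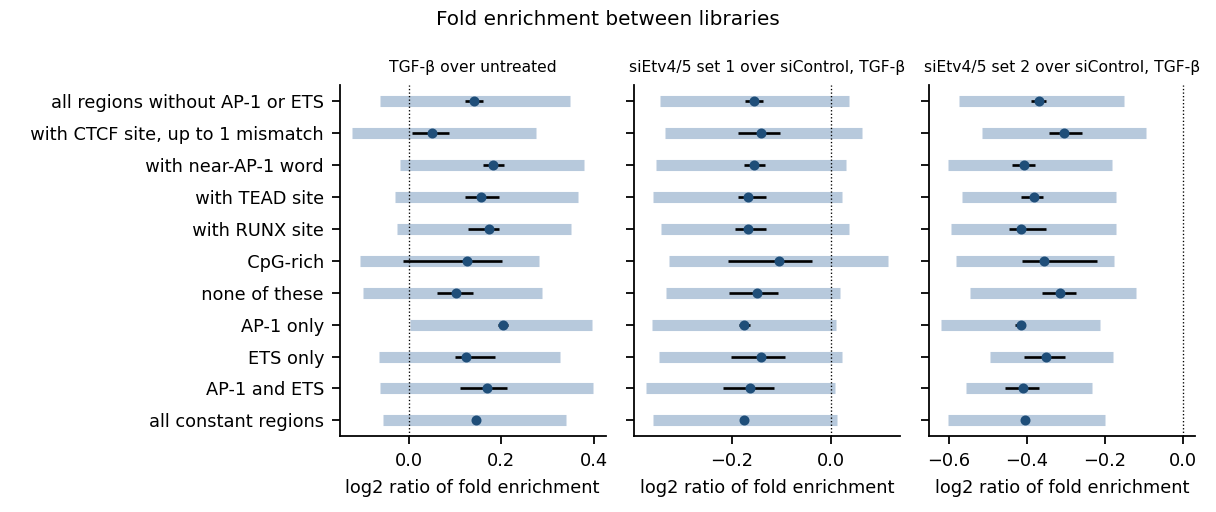
Log2 ratio of fold enrichment for each group of regions in the 3 contrasts, with the median (point), its 95% interval over regions (black line) and the quartiles (bar). With TGF-β the CTCF group has the lowest median, 0.05, and AP-1-only regions the highest, 0.20; with set 2 every median is below 0.

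The regions with the largest log2 ratios for TGF-β rested on few fragments. Near Slc16a8, a monocarboxylate transporter gene, fold enrichment was 6.35, 14.37, 14.2 and 9.59, from 12, 30, 34 and 25 summit fragments. Near Gm12210 it was 6.35, 14.2, 6.70 and 8.82, and near Sema4d, a semaphorin gene, 5.98, 13.3, 7.97 and 6.82. At the other end it was 12.4, 6.75, 7.48 and 6.55 near Rusc2, 9.24, 5.08, 5.05 and 5.28 near 9130008F23Rik, and 11.6, 6.95, 8.04 and 7.96 near Gm40578. The untreated library was the lowest of the 4 in each of the first 3 regions and the highest in each of the last 3. Its value helped to choose these regions, so its rank among the libraries partly follows from the choice.

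Regions within 50 kb of a TSS were counted for named genes of this cell system. Over all 20780 autosomal protein-coding genes, 12.1% had one. Of 14 epithelial genes 4 had one, of 14 mesenchymal genes 5, of 18 TGF-β signalling genes 4, of 13 Ras-ERK feedback genes 4, of 8 autosomal CTCF and cohesin genes 1 and of 9 autosomal housekeeping genes none. Regions without either site near these lists numbered 6, 7, 4, 4, 1 and 0. In the 6, 1 region near both Cldn3 and Cldn4 is counted for each gene. AP-1-only regions near the same lists numbered 8, 5, 14, 7, 2 and 2. They were more numerous in total (3106 against 2059), and 16.1% of the autosomal protein-coding genes had one within 50 kb. A region 22.1 kb from the TSS of Etv4, itself a target of the siRNAs, held a near-AP-1 word and had fold enrichment of 9.76, 13.3, 11.9 and 9.29. A region 2.4 kb from the TSS of Fosl1, which encodes the AP-1 subunit FRA-1, held TEAD and RUNX sites and stood at 9.17, 9.87, 8.67 and 5.47.

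Near Snai1, a repressor of epithelial genes, a region 5.3 kb away stood at 9.47, 7.45, 8.27 and 5.24. Near Spry1, an inhibitor of receptor tyrosine kinase signalling, a region 14.1 kb away with near-AP-1, TEAD and RUNX letters stood at 8.63, 9.96, 8.56 and 7.24. Near Cldn3, a tight junction gene, a region 3.7 kb away with a TEAD site stood at 5.88, 8.74, 8.33 and 5.57. Near Smc3, a cohesin subunit gene, a region 21.3 kb away with a CTCF motif at up to 1 mismatch stood at 6.73, 11.4, 11.8 and 10.9.

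The strongest regions were of another kind. The 10 with the highest fold enrichment in their weakest library lay nearest to Gm44436, Cdk5rap2, Gm33838, Gm9075, Gm47772, Gm39473, AC164106.1, Gm47987, Gm25727 and Gm44365, mostly noncoding or predicted genes. Near Gm44436 fold enrichment was 31.5, 29.9, 29.65 and 27.6, from 95 to 101 fragments. Near Cdk5rap2, a centrosomal protein gene, it was 28.7, 27.5, 27.7 and 28.9, from 113 to 128 fragments. Near Gm33838 it was 29.1, 28.9, 27.4 and 25.99.

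Of these 10, 7 shared letters. The window near Cdk5rap2 had at least 5 12-base words in common with those near Gm33838, Gm9075, Gm39473, Gm47987, Gm25727 and Gm44365 and with 9 further regions, 16 regions in all (0.777%), a grouping made after the values were seen. Only 1 of 3122 flanks, 1 of 3106 AP-1-only regions and 6 of 39250 windows placed every 50 kb through the genome shared as many with the Cdk5rap2 window. Other windows of the 7 matched more widely. In the same order the counts were 76, 19 and 728 for Gm44365, 54, 27 and 603 for Gm25727, and 15, 7 and 172 for Gm9075. Those near Gm33838, Gm39473 and Gm47987 matched 1 to 3 flanks and 8 to 23 of the genome windows. These 16 regions were soft-masked over a median of 66.3% of the window. Their median lowest fold enrichment was 9.72, against 6.76 in all 2059. The group was started from 1 of the 10 strongest regions and holds 7 of them, so this higher value partly follows from the choice. The word TATGGCGA of the search above was in 20 regions, 15 of them in this group.

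The letters near Cdk5rap2 resemble the mouse major satellite, the tandem repeat of pericentromeric heterochromatin, and those near Gm44436 and Gm23950 resemble the minor satellite of the centromere. This is a likeness to textbook repeats, and no repeat library was searched. The regions near Gm44436 and Gm47772 shared words with each other, but the former also did so with 43 flanks and 888 of the genome windows. In the 16 regions the median log2 ratios were -0.06, 0.01 and -0.03 for the 3 contrasts. The median 36-base word was unique in the assembled genome in 14 of the 16 and lay in up to 4 places in the other 2. Over all 2059 regions it was unique in 1983 (96.3%), and the highest median was 5 places.

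**Figure D5:**
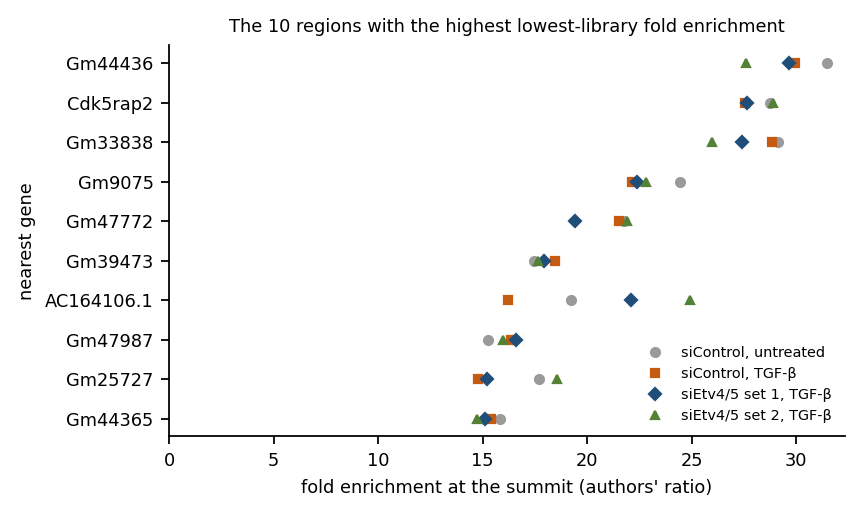
Fold enrichment at the summit (authors' ratio) in the 4 libraries for the 10 regions with the highest value in their weakest library, named by the nearest gene. The symbols of a region lie close together in most rows, and the region near AC164106.1 spreads most, from 16.2 with TGF-β to 24.9 with set 2.

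At the edges of the rule, the region nearest to a TSS lay 2001 bp away and the nearest one left out 1990 bp. The 122 regions at 2 to 3 kb held the exact CTCF motif in 8.20% of cases, and the 153 at 1 to 2 kb with neither site in 7.84%. The lowest -log10 q-value of a region in any library was 4.84, and in 30 regions the weakest library was below 6. Another 2086 distal regions with neither site had a peak in 3 of the 4 libraries, and set 2 was the missing one in 1256 of them. Set 2 had the fewest peaks of all libraries, and no such count is given for regions with either site.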

How the data were processed

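FAIRE-seq peak lists of 4 libraries, 1 per group, were read as deposited. Reads of 36 bp had been mapped to mm10 with Bowtie and peaks called with MACS2 2.1.0, as the submitters' processing notes name them (the study's methods name an earlier MACS2 version), at a q-value below 0.0001. The deposited columns hold the authors' fold enrichment, a ratio of summit signal to local background, the summit's p-value and q-value, each as -log10, and a score derived from the q-value, which was not used. Overlapping peaks (at least 1 bp) were merged, and each region took the strongest peak per library. Summit fragments and backgrounds were solved from the authors' fold enrichment and p-value, within 0.01 for 100% of peaks. Depth was the lowest background times an effective genome of 1.87 Gb over the shortest peak width.

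TSS and genes came from GENCODE vM21 (basic), and letters from GRCm38. Motifs were counted on both strands, and exact sites may overlap each other. Regions were listed by rule as the 10 strongest by their weakest library, the strongest 2 per enriched motif, the 3 highest and lowest TGF-β ratios, the top 20 words, the top 5 single changes of each site, and gene lists. Printed sites followed the separate order given with them, set after the values were seen and leaving out chromosome 18, and not every listed region is described. Members and lists were chosen with earlier results of these data known. With 1 list per group no p-value was computed. Scripts (Python 3.11.15, pandas 2.3.3, scipy 1.17.1) were tested on simulated data.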

Additional observations from a re-analysis of the deposited data

How the results depend on the processing

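Of 134 values recomputed under 16 alternatives, 104 stayed within their interval (or within 1.5 times, for the number of regions), 28 moved out of it and 2 changed direction. Barring AP-1 words with 1 difference left 230 regions, with GC 48.5%, soft-masked share 10.8%, exact CTCF share 14.8%, RUNX ratio 1.45, TEAD ratio 0.939, AGGAAG ratio 0.997, 38.3% in introns and log2 medians of 0.050 for TGF-β and -0.30 for set 2; there the ratios rest on 72 flanks. Without requiring set 2 there were 3315 regions, a CTCF share of 10.8% and a TEAD ratio of 2.05. A 300-bp window gave GC 48.3%, soft-masked share 7.33% and ratios of 2.15 for RUNX, 2.95 for TEAD and 1.31 for AP-1 words with 1 difference. Allowing 1 mismatch gave a CTCF share of 22.8%, ratio of 4.07 and central density ratio of 18.4. Windows placed through the genome, weighted by GC, gave 1.95 for RUNX and 1.16 for AGGAAG, and the 6-letter RUNX site 1.35. Fragments over depth gave log2 medians of 0.17, -0.23 and -0.65. The comprehensive TSS annotation, added after the data were seen, gave 45.8% in introns. Ordering by fragments over depth, also added then, gave CTCF shares at up to 1 mismatch of 27.2% in the weakest regions and 11.7% in the strongest. The cause of these shifts was not tested. The CTCF density could not be computed at 5 kb from a TSS or with AP-1 words barred, nor the CTCF ratio in the latter, since no site was left to divide by. No paired analysis was possible because each group had 1 library, and shares of single features in fewer than 100 regions are limited by their counts.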

Other observations

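GATA, POU and homeodomain motifs were less frequent in the 2059 regions than in the flanks. GATA sites (AGATAAG) were in 77 regions (3.74%) and 202 flanks (6.47%), a ratio of 0.578 (interval 0.447 to 0.747). Their density within 50 bp of the summit was 0.378 of that at the edge (0.169 to 0.849), from 7 and 37 sites. POU octamer sites had a ratio of 0.654, and the homeodomain core (TAATTA) 0.756. AP-1-only regions were much alike. They held POU sites in 2.45% against 2.28% here, the homeodomain core in 10.5% against 10.3%, and GATA in 4.80% against 3.74%. Against genome windows weighted to the same GC content the ratio was 0.607 for GATA, 0.733 for POU and 1.02 for the homeodomain core.

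SMAD letters, which TGF-β effectors bind, were at the level of the flanks. The CAGA box (CAGACA) was in 42.1% of regions and 41.2% of flanks, a ratio of 1.02, while AP-1-only regions held it in 46.7%. Grainyhead-like sites, bound by factors of epithelial identity, were in 3.55% of regions and 3.75% of flanks.

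The 349 regions with none of the 5 main features still held some motifs more often than flanks with none. Against the 1899 flanks with none, the highest ratios were those of AP-2 at 2.03 (1.30 to 3.17) and CAGGAAGT at 1.874 (1.27 to 2.77). NF-κB at 1.70 (1.11 to 2.61) and KLF/SP at 1.62 (1.21 to 2.16) followed. The 349 had a median GC content of 49.0%, and these ratios were not weighted by GC. Over all 2059 regions, genome windows weighted by GC gave 1.39 for AP-2, 2.06 for CAGGAAGT, 1.14 for NF-κB and 1.28 for KLF/SP. In 21 of the 349 (6.02%) more than 50% of the window was soft-masked, against 21 of the other 1710 (1.23%).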
